A study of Mus musculus with 12 samples.

Results

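The DNA methyltransferases Dnmt1, Dnmt3a and Dnmt3b, the catalytically inactive cofactor Dnmt3l and the recruiting factor Uhrf1 were followed in 12 mouse iPS cell clones that carried or lacked Aid. Their probes were taken as all non-control probes whose transcript accession belongs to 1 of these 5 genes, which gave 8 of the 55681 non-control probes on the array: 1 each for Dnmt1, Dnmt3a and Dnmt3l, 2 for Uhrf1 and 3 for Dnmt3b. All 8 were well above background on all 12 arrays. The question behind the arrays was whether loss of Aid, a cytidine deaminase that had been proposed to take part in active DNA demethylation, alters gene expression in reprogrammed cells. The members described here were chosen because they write or maintain the same mark.

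Methylation of cytosine in CpG dinucleotides is set up by Dnmt3a and Dnmt3b, which act on unmethylated DNA. Dnmt3l has no catalytic activity of its own but binds and stimulates both enzymes, and it is abundant in germ cells and in pluripotent stem cells. Dnmt1 copies the mark onto the new strand after replication, and Uhrf1 recognises hemimethylated CpG sites behind the fork and brings Dnmt1 to them. Mouse pluripotent cells are known to hold these genes at levels that shift between the naive state, which is low in de novo methylation, and the formative and primed states, in which Dnmt3b is a commonly used marker.

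Each clone was an expanded, GFP-positive colony, derived from mouse embryonic fibroblasts (MEFs) by retroviral Klf4, Sox2 and Oct3/4, to which c-Myc was added in some inductions, and each contributed 1 array. Wild-type clones (Aid+/+, 6 in all) came from 967B (967B2, 967B4 and 967B6) and from 979B (979B1, 979B3 and 979B4). Knockout clones (Aid-/-, 6 in all, from knockout mice) came from 979F (979F1, 979F2 and 979F3) and from a series whose clones are 981E1, 981E4 and 981E5, written below as 981E1/4/5. All 12 were labelled male, of a mix of C57BL6, DBA and 129S4, with a Nanog-GFP reporter, at passage 6, and were grown on gelatin with LIF, 20% FBS and puromycin, having earlier been kept on feeder cells. Which clones received c-Myc is not given in the sources used here. The 4 series of 3 are read from the clone names, and n = 3 for a series and n = 6 for a genotype throughout. In the study's blot of transgene integration 981E1 and 981E4 are listed among clones with shared patterns, in words that leave unclear whether with each other, so they were kept as 2 samples and also averaged as an alternative. Slide 1 held 967B, slide 2 held 979F, and slide 3 held 979B with 981E1/4/5, which are thus the one pair that compares the genotypes within a slide.

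Total Cy3-labelled RNA was hybridised in 1 colour. Per array, 31680 to 33652 probes stood well above background, and 0 spots were saturated. A level below is the log2 of the processed signal minus the 75th percentile of that array, so that 0 is the signal at that percentile. Over the 28322 probes above background on all arrays, 967B4 and 981E5 stood somewhat apart, with a median r of 0.977 and 0.979 with the other arrays against 0.985 to 0.991 for the remaining 10, and the main Dnmt3b values are also given without them. Levels of different probes are not compared, because probes differ in brightness. All 9 general pluripotency markers (among them Pou5f1, Nanog and Sox2) were above background on all arrays. Of 7 fibroblast markers, 4 were above background on all 12 arrays and Lum, which encodes a matrix proteoglycan, on none. Their summed level lay between 0.85 and 4.08 in the Aid+/+ clones, where 967B4 was lowest, and between 3.72 and 5.02 in the Aid-/- clones. Bulk RNA cannot tell fewer cells of a type from less RNA per cell. Both probes of Aid read higher in the Aid-/- clones (0.67 to 2.90 against -4.87 to -2.76, and 0.68 to 2.57 against -5.63 to -3.13). By the study's account these probes lie at the 3′ end of the gene and read immature Aid RNA, thought to start from the promoter of the cassette placed in the locus, so they separate the clones by label without checking the deletion.

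The promoters of Dnmt3b and Uhrf1 are shown because, among pairs of members, their levels moved together most closely over the clones. Each window is the RefSeq sequence from 250 bases before to 50 bases after an annotated start, in GRCm38.p6, read 5′ to 3′ on the plus strand, which is the coding strand of both genes. Capitals mark GGGCGG (the GC box) and CCAAT, each on either strand and overlapping where the letters run on. Uhrf1 has 2 annotated starts on chromosome 17, and Dnmt3b has 1 in this table, on chromosome 2. Which start was in use was not measured.
Dnmt3b promoter, chr2:153649199-153649498: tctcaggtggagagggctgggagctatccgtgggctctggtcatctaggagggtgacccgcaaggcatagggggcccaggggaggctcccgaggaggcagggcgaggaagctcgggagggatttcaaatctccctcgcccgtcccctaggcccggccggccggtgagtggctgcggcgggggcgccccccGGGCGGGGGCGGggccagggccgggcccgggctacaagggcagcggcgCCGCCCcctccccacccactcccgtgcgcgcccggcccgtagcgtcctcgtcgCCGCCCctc
Uhrf1 promoter, upstream start, chr17:56303087-56303386: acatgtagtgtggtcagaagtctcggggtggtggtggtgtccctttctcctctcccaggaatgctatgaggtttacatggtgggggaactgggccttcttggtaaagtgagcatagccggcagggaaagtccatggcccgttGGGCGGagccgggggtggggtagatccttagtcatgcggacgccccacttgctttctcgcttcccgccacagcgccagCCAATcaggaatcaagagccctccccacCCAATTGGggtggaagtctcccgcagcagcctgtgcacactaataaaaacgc
Uhrf1 promoter, downstream start, chr17:56304063-56304362: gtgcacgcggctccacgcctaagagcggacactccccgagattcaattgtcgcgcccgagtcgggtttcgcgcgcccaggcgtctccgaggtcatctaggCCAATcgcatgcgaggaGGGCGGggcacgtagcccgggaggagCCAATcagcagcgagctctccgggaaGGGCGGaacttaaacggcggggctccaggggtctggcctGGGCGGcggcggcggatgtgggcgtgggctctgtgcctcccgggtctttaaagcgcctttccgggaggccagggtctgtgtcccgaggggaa

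The Dnmt3b window held 4 GC boxes and 0 CCAAT boxes, the upstream Uhrf1 window 1 and 3, and the downstream Uhrf1 window 3 and 2. A GC box was present in 35.7% and a CCAAT box in 37.4% of the 32851 promoter windows of the table. CpG dinucleotides numbered 30 in the Dnmt3b window, 12 and 33 in the Uhrf1 windows, and 7 in the median window. The letters TTTCCCGC and TTTGGCGC, read on both strands as E2F-type motifs, were found in neither gene's windows, and occur in 1.07% and 0.514% of all windows. Among the other members, 1 of 3 Dnmt1 windows held TTTGGCGC. These matches describe letters only. The data include no measurement of binding or methylation at these promoters.

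Dnmt3b was the member that differed most from clone to clone, and the 4 clones lowest in it were 3 Aid-/- clones of 1 series and 1 Aid+/+ clone. On the probe A_55_P2130535, the level was 6.77, 5.51 and 6.89 in 967B2, 967B4 and 967B6, and 6.25, 6.85 and 6.97 in 979B1, 979B3 and 979B4. It was 6.59, 6.93 and 6.87 in 979F1, 979F2 and 979F3, and 6.10, 5.32 and 4.68 in 981E1, 981E4 and 981E5. Thus the 3 clones of 981E1/4/5 and the Aid+/+ clone 967B4 were the lowest 4, and the other 8 lay within 0.72 of each other. Between 981E5 and 979B4, the extremes, the level differed 4.89-fold.

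The other probes of Dnmt3b gave the same order of low clones. On A_55_P1975903 the level was 3.68 in 967B4 and 4.27, 3.38 and 2.75 in 981E1, 981E4 and 981E5, against 4.46 to 5.28 in the remaining clones. On A_55_P2008874 it was 3.99 in 967B4 and 4.62, 3.70 and 3.03 in the 981E1/4/5 clones, against 4.79 to 5.54 elsewhere. Over the 12 clones the 3 probes correlated pairwise with r = 0.995 to 0.999. They are assigned to the same transcript, so this describes the precision of the arrays and not independent measurements.

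**Figure D1:**
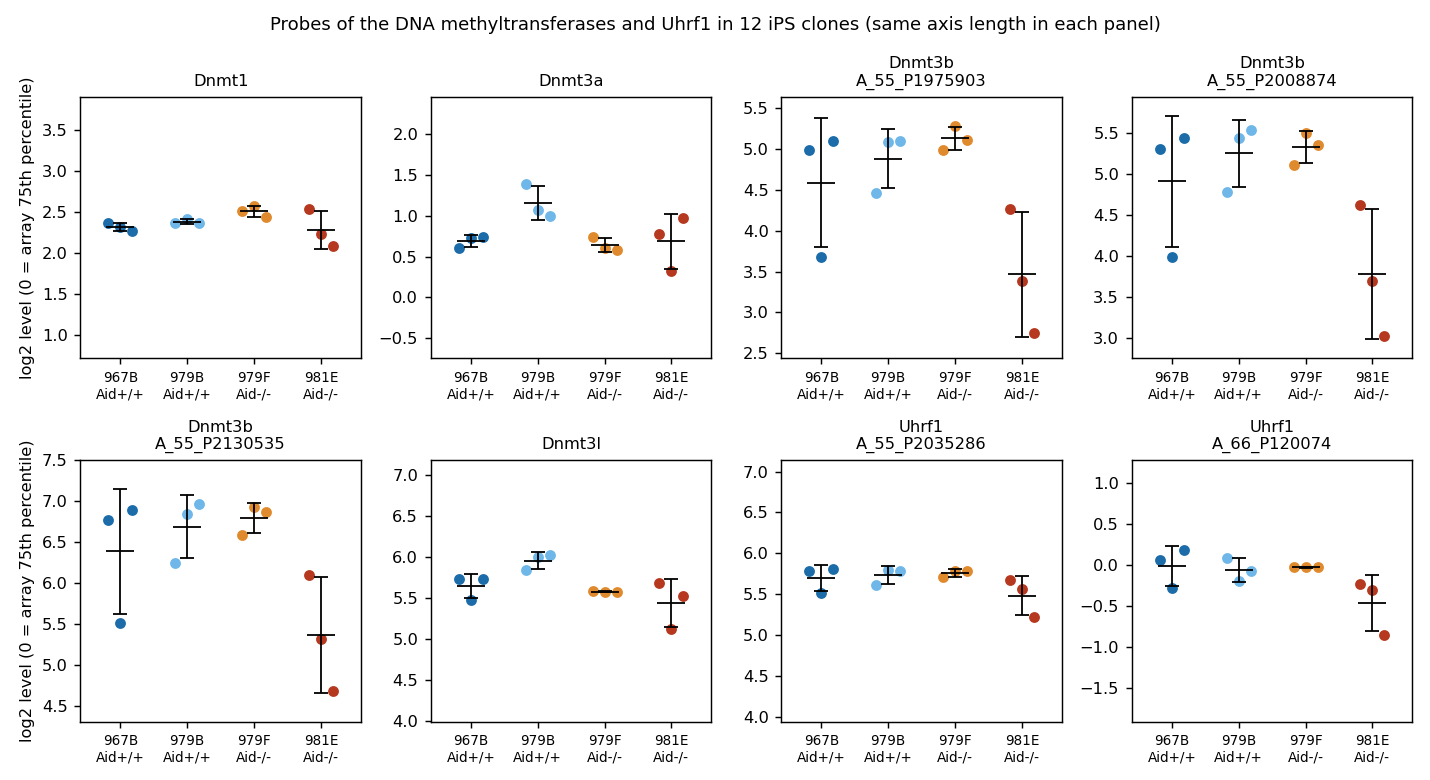
Level of each of the 8 probes (log2, 0 at the 75th percentile of the array; the y axes have the same length but different positions) in the 4 clone series. Points are clones, horizontal bars are means and whiskers are SDs of n = 3; Dnmt3b spans over 2 log2 units with 967B4 and the 981E1/4/5 clones at the bottom, and the Dnmt1 probe spans 0.49.

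Across the 28322 probes that were above background and measured on all 12 arrays, the median SD over clones was 0.26. The Dnmt3b probes had SDs of 0.76 to 0.83, above 97.1% to 98.0% of those probes. Dnmt1 had 0.14, above 10.3%, and was thus among the more even probes of the array. Dnmt3a with 0.28 (above 56.0%), Dnmt3l with 0.24 (46.2%) and the Uhrf1 probes with 0.17 and 0.27 (21.7% and 53.8%) lay near or below the middle. Within series, the pooled spread of the Dnmt3b probes was 0.56 to 0.61, again above 95.7% to 96.8% of probes. On A_55_P2130535 the SD was 0.77 in 967B and 0.71 in 981E1/4/5, but 0.38 in 979B and 0.18 in 979F. Mainly in 967B and 981E1/4/5, then, sister clones differed in Dnmt3b. Without 967B4 and 981E5 its SDs were 0.52 to 0.58, each above at least 92.8% of probes over the same 10 clones. Series membership accounted for 60.1% to 64.2% of its variance over clones and genotype for 7.5% to 11.1%. The series share was similar for Dnmt3l (64.7%) and Dnmt3a (60.9%), where genotype accounted for 38.8% and 23.7%. It was 41.3% to 52.1% for Dnmt1 and the Uhrf1 probes. The series share contains the genotype share, because each series holds a single genotype, and it rests on more groups. The shares of series and genotype are therefore not directly comparable.

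**Figure D2:**
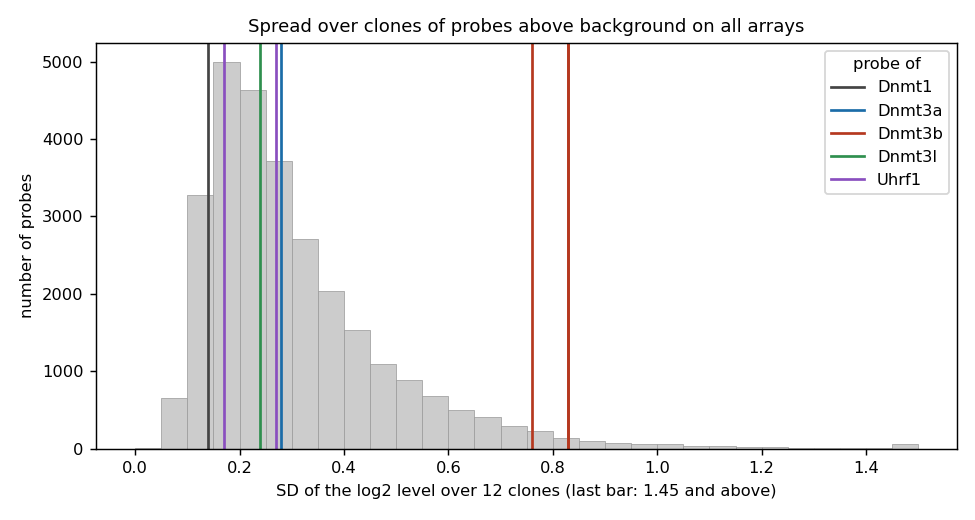
Histogram of the SD of the log2 level over the 12 clones (x axis) for 28322 probes above background on all arrays (y axis, number of probes; the last bar collects all larger SDs). Vertical lines are the 8 probes, of which the 3 of Dnmt3b, 2 of them drawn over each other at 0.83, stand in the upper tail.

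No member passed the test between the genotypes: 0 of 8 probes were called at an adjusted p under 0.05 (limma, Benjamini-Hochberg over all probes, as for every adjusted p here), where 0.0611% of all 55681 probes were. At an unadjusted p under 0.05, 1 of the 8 passed, a share no higher than the 13.6% of all probes that did. In none of the 8 did the 6 Aid-/- clones lie wholly above or below the 6 Aid+/+ clones, which happened for 2.18% of probes. Of the 8 log2 differences 7 were below 0, among them those of the 3 Dnmt3b probes, which are not independent. The median of the 8 was -0.28, against -0.06 over all probes above background on every array.

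Dnmt3b, the de novo enzyme, ranged over 5.51, 6.81 and 6.97 (lowest, median and highest) in Aid+/+ clones and 4.68, 6.35 and 6.93 in Aid-/- clones on A_55_P2130535. The log2 difference was -0.46 ± 0.40 (SE), with a 95% interval from -1.34 to 0.42 (adjusted p = 0.696). A halving lies within that interval. On the other probes the log2 differences were -0.43 ± 0.44 and -0.53 ± 0.44 (adjusted p = 0.738 and 0.669). The size depended on single clones and on which series were compared. Over the 3 probes it was -0.13 to -0.22 without 981E5, -0.64 to -0.75 without 967B4 and -0.34 to -0.44 without both. With slide as a fixed block it was -1.32 to -1.48, where adjusted p was 0.107 to 0.119. That fit compares the genotypes only within the slide that holds both, so it does not measure an effect of slide.

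Dnmt3a, the other de novo enzyme, had lowest, median and highest levels of 0.61, 0.87 and 1.39 in Aid+/+ and 0.32, 0.67 and 0.97 in Aid-/- clones. The groups overlapped, and the log2 difference was -0.26 ± 0.15 (95% interval -0.58 to 0.06, adjusted p = 0.482). Dnmt3l, their cofactor, was the member that passed only before adjustment. Its levels were 5.48, 5.79 and 6.03 in Aid+/+ and 5.12, 5.57 and 5.68 in Aid-/- clones, a log2 difference of -0.29 ± 0.12 (95% interval -0.56 to -0.03, adjusted p = 0.322). Here too the ranges overlapped.

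Dnmt1, the maintenance enzyme, stood at 2.27, 2.36 and 2.42 in Aid+/+ and 2.08, 2.47 and 2.57 in Aid-/- clones. Its log2 difference was 0.05 ± 0.10, and the 95% interval, -0.17 to 0.26, is the narrowest of the 8. Uhrf1 on A_55_P2035286 stood at 5.52, 5.79 and 5.81 in Aid+/+ and 5.22, 5.69 and 5.79 in Aid-/- clones, with a log2 difference of -0.09 ± 0.11 (95% interval -0.33 to 0.15). The second Uhrf1 probe, A_66_P120074, is assigned to another Uhrf1 transcript and gave -0.21 ± 0.15 (95% interval -0.54 to 0.12). Adjusted p-values of these 3 probes were 0.919, 0.774 and 0.599.

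**Figure D3:**
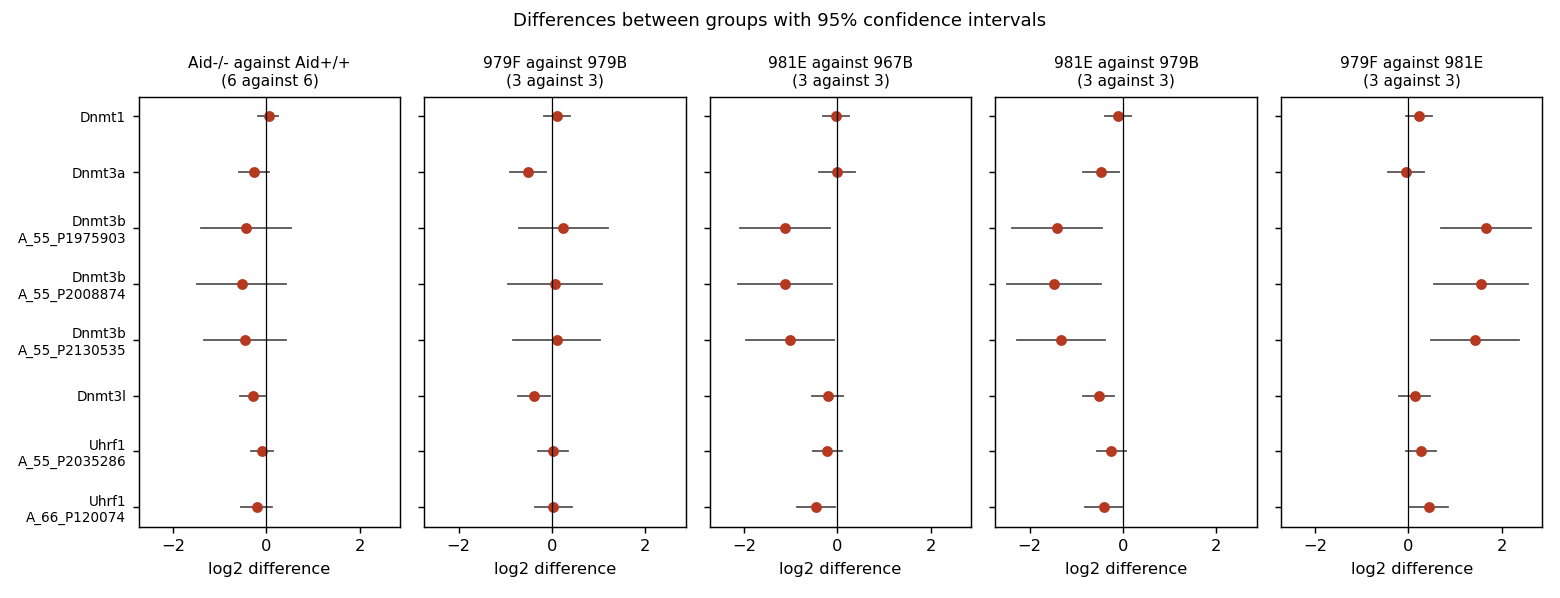
Log2 difference (x axis) of each probe (y axis) in 5 comparisons, named in each panel as first group against second, with points for the estimate and lines for the 95% confidence interval from limma. In the genotype panel 7 of 8 intervals include 0 and that of Dnmt3l ends at -0.03; the Dnmt3b intervals lie below 0 where 981E1/4/5 is the first group and above 0 where it is the second.

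By the clone names, 979F and 979B come from the same experiment and compare both genotypes without the 981E1/4/5 clones. Against 979B, 0 of 8 probes were called in 979F (0.614% of all probes were). Dnmt3b differed by 0.11 ± 0.42 on A_55_P2130535 and by 0.07 and 0.25 on the others. Dnmt3a was 0.74, 0.60 and 0.58 in 979F and 1.39, 1.07 and 1.00 in 979B, with no overlap and a log2 difference of -0.51 ± 0.17 (adjusted p = 0.217). Dnmt3l was 5.59, 5.58 and 5.57 in 979F and 5.84, 6.00 and 6.03 in 979B, again with no overlap, at -0.38 ± 0.15 (adjusted p = 0.287). Together with Dnmt1, which did not overlap at a log2 difference of 0.12, this made 3 of 8 probes without overlap, where 29.3% of all probes had none. The 2 series lay on different slides, so slide and genotype cannot be told apart in this pair.

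The other pair of opposite genotype gave a lower Dnmt3b. Against 967B, the Dnmt3b probes of 981E1/4/5 differed by -1.02 ± 0.42 to -1.13 ± 0.45 on the log2 scale (adjusted p = 0.312 to 0.343), and none of the 8 probes was called (0.196% of all probes were) or free of overlap (14.8% were). The Dnmt3b differences were -0.68 to -0.76 without 981E5, -1.46 to -1.59 without 967B4, and -1.12 to -1.21 without both. Whether the genotype difference itself differed between these 2 pairs (979F against 979B and 981E1/4/5 against 967B) was tested as a contrast: it came to 1.13 ± 0.59, 1.21 ± 0.64 and 1.37 ± 0.61 for the Dnmt3b probes (adjusted p = 0.505 to 0.579), to -0.50 ± 0.24 for Dnmt3a and to -0.17 ± 0.21 for Dnmt3l. Here 0 of 8 were called, and 0.106% of all probes.

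On the shared slide each genotype is 1 series, so genotype and series cannot be told apart there. In this pair 981E1/4/5 lay below 979B in all 8 probes, and 6 of 8 did not overlap, where 23.6% of all probes did not. The 6 include the 3 probes of Dnmt3b, which are not independent, so the shares are not directly comparable. Dnmt3b differed by -1.32 ± 0.42, -1.41 ± 0.43 and -1.48 ± 0.45 (adjusted p = 0.107 to 0.119), equal to 0.399-fold, 0.376-fold and 0.360-fold, and by -0.98 to -1.10 without 967B4 and 981E5. Dnmt3l was 5.68, 5.12 and 5.53 in 981E1, 981E4 and 981E5, below all of 979B, at -0.51 ± 0.15 (adjusted p = 0.0954). Dnmt3a, at 0.77, 0.32 and 0.97, was also below all of 979B, at -0.47 ± 0.17 (adjusted p = 0.177). None was called, while 4.13% of all probes were. With the probes that are not above background on every array left out before adjustment, Dnmt3l and 2 Dnmt3b probes passed (adjusted p = 0.0375, 0.0454 and 0.0455). In that fit 3841 of the 28367 probes kept passed. Without the clone 967B4, which enters this fit only through the pooled spread, all 3 Dnmt3b probes passed (adjusted p = 0.0394 to 0.0445). There 4225 of all 55681 probes passed. Without 981E5 the 3 Dnmt3b probes did not pass (adjusted p = 0.286 to 0.31), where 1167 of 55681 probes did.

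Series of the same genotype were also compared, but each such pair lay on different slides, so slide and series cannot be told apart in them. Between the Aid-/- series, Dnmt3b was higher in 979F than in 981E1/4/5 on every probe with no overlap, by 1.43 ± 0.42, 1.55 ± 0.45 and 1.66 ± 0.43 on the log2 scale, or 2.70-fold, 2.93-fold and 3.16-fold (adjusted p = 0.0716 to 0.1). With both Uhrf1 probes, 5 of 8 probes did not overlap, where 26.3% of all probes did not, and 0 of 8 were called, where 3.02% were. The 5 are probes of Dnmt3b and Uhrf1 only, and the 3 of Dnmt3b are not independent. The 3 Dnmt3b probes passed when probes not above background on every array were left out (adjusted p = 0.0293 to 0.0434) and when 967B4 was left out (0.0276 to 0.0421), and 2 passed without 981E1. Over all probes, 3304 of 28367, 3397 of 55681 and 1722 of 55681 passed in these fits, in that order. Without 981E5 the 3 Dnmt3b probes did not pass (adjusted p = 0.223 to 0.303), where 498 of 55681 probes did. Without 967B4 and 981E5 the Dnmt3b differences were 1.09 to 1.30. Between the Aid+/+ series, 979B against 967B, 0 of 8 were called (0.711% of all probes) and 3 did not overlap (13.8%): Dnmt1, Dnmt3a, by 0.46 ± 0.17, and Dnmt3l, by 0.31 ± 0.15. For Dnmt3b, the 2 series of Aid-/- clones thus lay as far apart as 981E1/4/5 and 979B, a comparison with which they share the 981E1/4/5 clones.

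Ordered by the mean of the series, Dnmt3b ran from 979F (6.80 ± 0.18, SD) through 979B (6.69 ± 0.38) and 967B (6.39 ± 0.77) to 981E1/4/5 (5.37 ± 0.71) on A_55_P2130535, and neighbouring series overlapped at each step. Uhrf1 on A_55_P2035286 had the same order, 5.76 ± 0.04, 5.73 ± 0.11, 5.70 ± 0.16 and 5.49 ± 0.24, with overlap at each step. Dnmt1 ran 979F (2.51 ± 0.06), 979B (2.38 ± 0.03), 967B (2.31 ± 0.05) and 981E1/4/5 (2.28 ± 0.23), of which only the last pair overlapped. Dnmt3a and Dnmt3l were both highest in 979B (1.15 ± 0.21 and 5.96 ± 0.10), and that series did not overlap with the next one, 967B (0.69 ± 0.07 and 5.65 ± 0.15). The remaining series of both genes overlapped with their neighbours.

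On its brighter probe, A_55_P2035286, Uhrf1 followed Dnmt3b closely over the clones, although over a much smaller range. Its level there was 5.78, 5.52 and 5.81 in the 967B clones, 5.61, 5.80 and 5.79 in 979B, 5.71, 5.79 and 5.78 in 979F, and 5.67, 5.56 and 5.22 in 981E1/4/5, in the order of the clone names. The 5 clones lowest in Dnmt3b were also the 5 lowest on this Uhrf1 probe, and 981E5 was lowest in both. Over the 12 clones Pearson's r was 0.96 (permutation p = 2e-05, adjusted over the 10 pairs of members 0.0002) and Spearman's rho 0.90 (permutation p = 0.00026, adjusted 0.0026). Without 981E4 and 981E5, the 2 clones farthest from the Dnmt3b median, r was 0.96, and without 967B4 and 981E5 it was 0.93. It was 0.95 after the mean of each series was subtracted, 0.97 among the 6 Aid+/+ and 0.95 among the 6 Aid-/- clones (exact permutation p = 0.0111 and 0.00139), and 0.94 among the 6 clones of slide 3 (exact permutation p = 0.00556). The slides 1 and 2 hold 3 clones each, too few for a value. The second Uhrf1 probe, A_66_P120074, was less tightly linked: it correlated with the first at 0.851 and with Dnmt3b at r = 0.83 and rho = 0.59 (permutation p = 0.00106 and 0.0451), at r = 0.53 without 981E4 and 981E5, and at 0.58 without 967B4 and 981E5. On it 981E5 (-0.86) was again lowest, but 979B1 (0.09) was the highest of the 979B clones. Clones of 1 series share their origin, so they are not fully independent. The relation is not particular to this pair: Set, Gspt1 and Nxf1 followed Dnmt3b more closely (r = 0.99, 0.98 and 0.98). The share of all probes that did so was not measured.

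The other members were less tightly linked. Dnmt3a and Dnmt3l had r = 0.73 and rho = 0.71 (permutation p = 0.00841 and 0.0116, adjusted 0.042 and 0.0463), with r = 0.63 without 979B1 and 981E4, and 0.43 once series means were subtracted. Without 981E4 alone it was 0.59 and no longer passed at 0.05. Dnmt1 had r = 0.67 with Dnmt3b and 0.68 with Uhrf1 (permutation p = 0.0171 and 0.0152, both adjusted 0.0428), but rho was 0.44 and 0.32, and r fell to 0.32 and 0.24 without 979F2 and 981E5, so both relations rest on those clones. Without 981E5 alone they were 0.40 and 0.33. Dnmt3b and Dnmt3l reached r = 0.61 (permutation p = 0.0349, adjusted 0.0698). Dnmt3l and Uhrf1 had r = 0.46 and rho = 0.70, of which only rho passed after adjustment (0.0463). Dnmt3a followed none of Dnmt1, Dnmt3b and Uhrf1, with r between -0.13 and 0.06.

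Dnmt3b is itself counted among formative and primed genes. Its level was set against the other genes of that list, the naive genes and the genes of S phase, 27 relations in all. The share of all probes that would pass with Dnmt3b was not measured, so passing does not set a listed gene apart. The permutations also treat clones of a series as independent. Pou3f1, a POU factor of formative cells, moved with it. Pou3f1 stood at 4.22, 2.65 and 4.12 in the 967B clones, 2.87, 3.68 and 3.97 in 979B, 3.81, 4.46 and 4.29 in 979F, and 3.28, 2.70 and 1.26 in 981E1/4/5. Its lowest clones were 981E5, 967B4, 981E4 and 979B1, of which the first 3 were also among the lowest 4 in Dnmt3b. Pearson's r was 0.95 and rho 0.86 (permutation p = 3e-05 and 0.00062, adjusted 0.00054 and 0.0167), and r was 0.90 without 981E4 and 981E5 and 0.97 within series (series means subtracted). Sox3, a SoxB1 factor, had r = 0.90 and rho = 0.77 (permutation p = 8e-05 and 0.00519, adjusted 0.00072 and 0.028) and 0.75 without those clones. Fgf5, a growth factor used as a primed marker, reached r = 0.66 (permutation p = 0.0193, adjusted 0.0745), 0.97 within series and 0.35 without 981E4 and 981E5. Zic2 (r = 0.51, permutation p = 0.0935) and Otx2 (r = -0.20, permutation p = 0.531) did not pass, although Zic2 had r = 0.81 within series.

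Among naive genes Klf2 and Tbx3 ran against Dnmt3b. Klf2, a Krüppel-like factor of the naive network, was 5.92, 5.75 and 6.23 in 981E1/4/5, above all 9 other clones (4.81 to 5.29), and had r = -0.86 and rho = -0.77 with Dnmt3b (permutation p = 0.00197 and 0.00508, adjusted 0.0106 and 0.028). Without 981E4 and 981E5 r was -0.62 and no longer passed at 0.05, and without 967B4 and 981E5 it was -0.81. Tbx3, a T-box factor, had r = -0.72 and rho = -0.70 (permutation p = 0.00686 and 0.0145, adjusted 0.0309 and 0.049), r = -0.71 without them, and -0.49 within series. Tfcp2l1 and Esrrb had r = -0.66 and -0.58 (permutation p = 0.0221 and 0.0452, adjusted 0.0746 and 0.0938), passed by rho alone (rho = -0.72 and -0.71, permutation p adjusted 0.0469 and 0.049), and reached r = -0.94 and -0.91 without 981E4 and 981E5. Klf4, whose coding sequence was also a transgene, had r = -0.31 (permutation p = 0.315), and the other 3, Nr0b1, Dppa3 and Prdm14, lay between -0.23 and -0.08. Klf2 and Tbx3 were also called between series: in 981E1/4/5 against 979B they were higher by 1.10 ± 0.14 and 1.37 ± 0.23 (adjusted p = 0.00455 and 0.0118), and in 979F against 981E1/4/5 lower by 1.02 and 1.62 (adjusted p = 0.0101 and 0.00972), the comparisons in which the Dnmt3b probes had their lowest adjusted p-values. Neither was called between the genotypes.

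**Figure D4:**
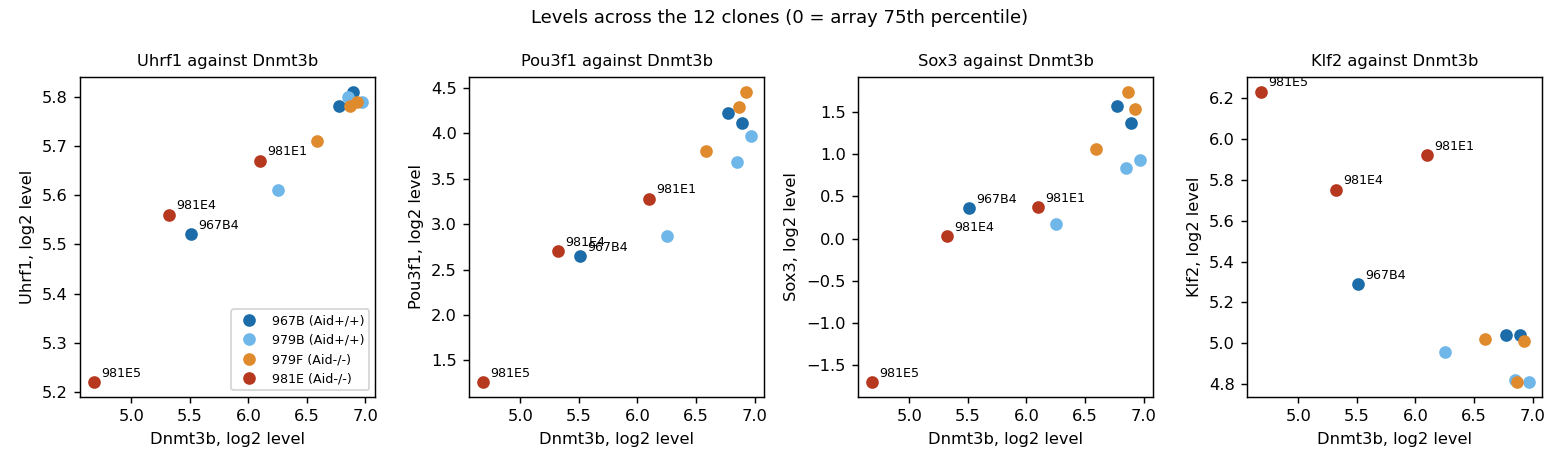
Level of Uhrf1, Pou3f1, Sox3 and Klf2 (y axes) against Dnmt3b on A_55_P2130535 (x axes), all as log2 with 0 at the 75th percentile of the array; each point is 1 of 12 clones, coloured by series, and the 4 lowest in Dnmt3b are named. Uhrf1, Pou3f1 and Sox3 rise with Dnmt3b (r = 0.96, 0.95 and 0.90) and Klf2 falls (r = -0.86).

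Of 14 S phase genes, Mcm2, a subunit of the replicative helicase, and Ccne1, which encodes cyclin E1, passed with Dnmt3b. Here too the share of all probes that would pass was not measured. Mcm2 ranged from 4.26 in 981E5 to 4.73 in 967B2 and had r = 0.90 and rho = 0.78 (permutation p = 4e-05 and 0.00432, adjusted 0.00054 and 0.028). Ccne1 ranged from 4.50 in 981E5 to 6.47 in 979F and had r = 0.91 and rho = 0.79 (permutation p = 0.00014 and 0.0033, adjusted 0.00094 and 0.028). The other 12 did not pass after adjustment, with r from -0.59 for Mki67, a proliferation marker, to 0.62 for Mcm3. The probe of 1 of them, Ccne2, was above background on 0 arrays. Within series, Ccna2, which encodes cyclin A2, Top2a, a topoisomerase, and Mki67 ran against Dnmt3b (r = -0.92, -0.89 and -0.84). Mcm2 and Ccne1 ran with it (0.87 and 0.85), as did Mcm4, Rrm2, Cdc6 and Mcm7 (0.84, 0.79, 0.78 and 0.66). The remaining genes lay between -0.03 for Mcm5 and 0.51 for Mcm6. These values within series were not tested.

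Of the formative and primed genes beside Dnmt3b, Fgf5 had the largest genotype difference, -0.70 ± 0.58 on the log2 scale (adjusted p = 0.673), and of the general pluripotency markers the 3 probes of Tdgf1, an EGF-CFC co-receptor, had -0.52 ± 0.13 to -0.57 ± 0.14 (adjusted p = 0.128 to 0.166). Fibroblast markers had larger ones, which did not pass either: 2.28 ± 0.93 for Col1a2, 1.77 ± 0.65 for Col1a1 and 1.60 ± 0.65 for Dcn (adjusted p = 0.306, 0.263 and 0.309). Their summed level was 0.85 in 967B4, the lowest of all, and 4.12, 4.70 and 3.72 in 981E1, 981E4 and 981E5, within the range of the other 8 clones (2.74 to 5.02). The low clones in Dnmt3b thus included the lowest level of these markers and levels within the range of the other clones. The part of such cells in the genotype values was not tested.

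**Figure D5:**
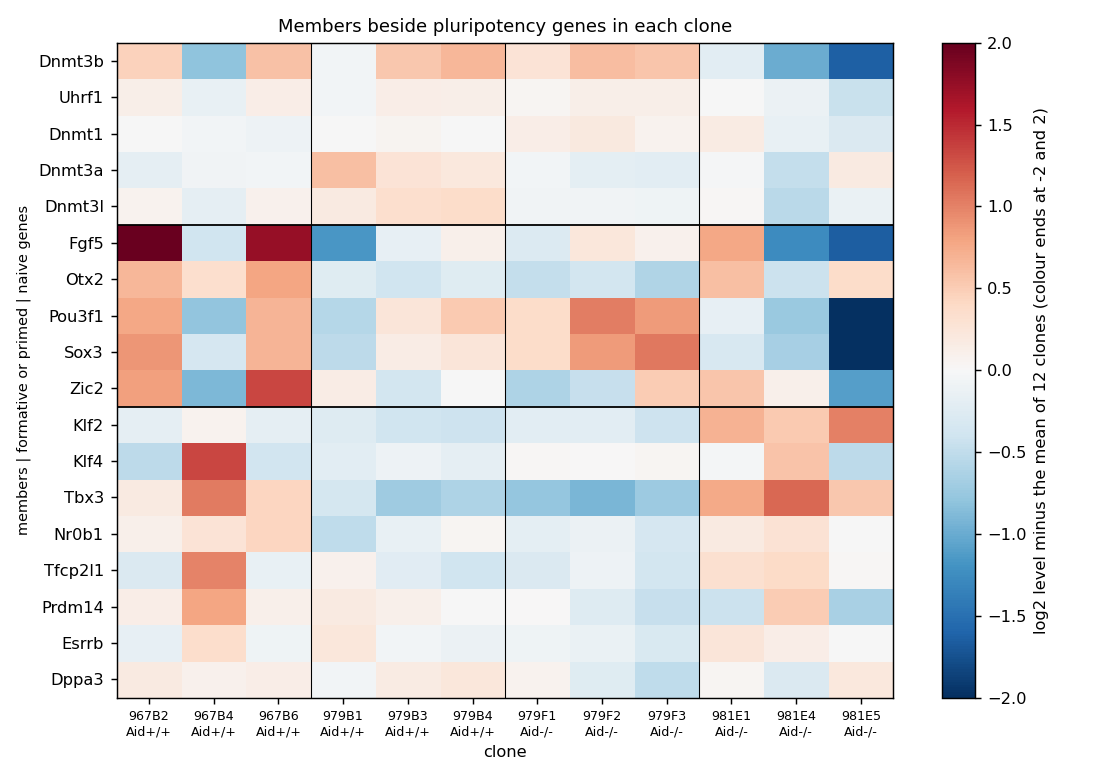
Log2 level minus the mean of the 12 clones (colour, ending at -2 and 2) for the 5 members, 5 formative or primed genes and 8 naive genes (rows) in each clone (columns, grouped by series). The columns 967B4, 981E4 and 981E5 are blue in Dnmt3b, Pou3f1 and Sox3, and the 981E1/4/5 clones are red in Klf2 and Tbx3.

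For each member, the 3 genes whose probes were most alike over the 12 clones are given as a description, among 17596 named probes above background on every array. Dnmt3b was closest to Set (r = 0.99), Gspt1 (0.98) and Nxf1 (0.98). Uhrf1 was closest to Etv2 (0.99), Med14 (0.99) and Hnrnpd (0.98). For Dnmt1 they were Tonsl (0.97), Med12 (0.94) and Bag6 (0.93). Dnmt3a was nearest to Akap8l (0.96), Arnt (0.95) and Aldh9a1 (0.93), and Dnmt3l to Car14 (0.92), Marveld3 (0.91) and Snx22 (0.90). These values are the highest of 17596 and only describe the 12 clones.

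The wider methylation machinery and related genes were read from 7 lists of 62 genes with 90 probes. These include 14 S phase genes (17 probes) and 8 germline genes (8 probes), which are not part of that machinery. Aside from the probes of Aid itself, 0 of the other 88 probes passed between the genotypes. In 979F against 979B 1 was lower, in 981E1/4/5 against 979B 1 was higher and 1 lower, in 979B against 967B 1 was higher, in 979F against 981E1/4/5 3 were higher and 2 lower, and in 981E1/4/5 against 967B none passed. Of all probes, 4.13% passed in 981E1/4/5 against 979B and 3.02% in 979F against 981E1/4/5, against 2 and 5 of the 88 here.

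Of the 9 partners of maintenance methylation, with 12 probes, none passed in any comparison, and their median log2 difference between the genotypes was -0.19. The largest were those of Uhrf2, the paralogue of Uhrf1, at -0.41 ± 0.16 (adjusted p = 0.286), and of 2 probes of Smchd1, a structural protein of the silent X chromosome, at -0.31 ± 0.09 and -0.26 ± 0.08 (adjusted p = 0.145 and 0.203). Of the 12 genes that limit or direct methylation, with 17 probes, Ehmt1 and Ehmt2, the paired H3K9 methyltransferases, were higher in 979F than in 981E1/4/5, by 0.63 ± 0.14 and 0.47 ± 0.09 (adjusted p = 0.0416 and 0.0302). Their genotype differences were -0.09 and -0.08.

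Among 8 methyl-CpG readers, with 13 probes, Mbd1, a repressor that binds methylated CpG, was the one called. It was higher in 981E1/4/5 than in 979B by 1.25 ± 0.17 (adjusted p = 0.00475) and lower in 979F than in 981E1/4/5 by 1.20 ± 0.17 (adjusted p = 0.00901), the opposite sign to Dnmt3b. The oxidation and excision genes Tet1, Tet2, Tet3 and Tdg had no called probe. Their largest genotype differences were 0.15 ± 0.07 and 0.14 ± 0.07 for Tet2 and -0.13 ± 0.13 for Tet1 (adjusted p = 0.391, 0.448 and 0.727). The S phase genes, with 17 probes, had none either, at a median of -0.13 and with Top2a, a topoisomerase, at -0.37 ± 0.14 (adjusted p = 0.261).

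Germline genes known to be silenced by promoter methylation in somatic cells formed a list of 8, measured by 1 probe each. All 8 were above background on all arrays, and whether they follow the mark in these clones was not tested. None passed between the genotypes, where their median log2 difference was -0.16. Taf7l, a germ cell TFIID subunit, was higher in 979B than in 967B by 0.70 ± 0.11 (adjusted p = 0.0196), and lower by 0.69 ± 0.11 in both 979F and 981E1/4/5 than in 979B (adjusted p = 0.0281 and 0.00888). It thus stood out in the series that was also highest in Dnmt3a and Dnmt3l. Dazl, an RNA-binding protein of germ cells, was lower in 979F than in 981E1/4/5 by 1.39 ± 0.28 (adjusted p = 0.0324), where the Dnmt3b probes were higher but not called. Whether Taf7l or Dazl relates to the level of any member was not tested. The neural gene Nes, from the list of early differentiation, was lower in the same comparison by 0.70 ± 0.14 (adjusted p = 0.0323).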

How the data were processed

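Each of the 12 iPS clones was measured on 1 one-colour Agilent array with Cy3-labelled RNA. The authors deposited spot tables whose processed intensity is background-corrected but not scaled between arrays, with the median intensity of each spot and its local background. They also deposited log2 values scaled to the 75th percentile in GeneSpring GX.

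Control spots and outlier-marked spots were dropped, processed intensities were put on the log2 scale and averaged per probe, and each array was centred on its 75th percentile. Probes were named through RefSeq accessions (27235 probes, 20660 genes, GRCm38.p6), and no positions were taken for probes, whose design build differs. All 55681 non-control probes were fitted in limma 3.58.1 (R 4.3.3; lmFit and eBayes), with a mean per genotype or, for series, a mean per clone series, and p-values were adjusted by Benjamini-Hochberg over all probes. The fit was tested on simulated data. Correlations used 100000 permutations, or all orders within 6 clones (Python 3.11.15, scipy 1.17.1). The number of arrays limits the precision. The members, the gene lists and the tests were chosen with earlier results of these data known. Named are all member probes, list genes called in a comparison or else the 3 list probes with the largest genotype differences, and the 3 genes most alike to each member. The result of 1 list gene is not reported here. Correlations of Dnmt3b with other genes and with the second Uhrf1 probe were added after seeing the data.

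The alternatives were normexp background correction (offset 50), quantile normalization, the deposited log2 values, the percentile taken over detected probes, filters on dim probes, outlier spots kept, an intensity trend with robust estimation, the methods' t-test, slide or series as a block, 979B with 979F alone, slide 3 alone, 981E1 and 981E4 averaged, and leaving out each clone.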

Additional observations from a re-analysis of the deposited data

Results flagged for a closer look

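In 2 of the 16 sets of 6 clones examined (8 probes in each genotype), 1 clone lay apart from the other 5 by Dixon's test at 95%, which chance gives in about 1 of 20 sets. Dnmt3l was 5.12 in 981E4, and the nearest other Aid-/- clone was 5.53. The Uhrf1 probe A_66_P120074 was -0.86 in 981E5, and the nearest other was -0.31. For the Dnmt3b probes no clone of either genotype lay apart by this test.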

How the results depend on the processing

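Between the genotypes, 0 of the 8 member probes were called under each alternative run, although the count over all probes moved from 34 to 517 with normexp, 52 higher and 55 lower with quantile normalization, 480 and 285 with probes above background on all or on 6 or more arrays, 288 with an intensity trend and robust estimation, 2299 with slide as a fixed block, 283 with 979B and 979F alone, 816 with slide 3 alone, 15 and 7 with slide or series as a random block, and 9 with 981E1 and 981E4 averaged. In 981E1/4/5 against 979B and in 979F against 981E1/4/5 alike, the members called were 1 with normexp, 3 with probes above background on all arrays, 1 with those on 6 or more and 1 with the trend, and 0 to 3 when 1 clone was left out. Over all probes, 3222 and 2604 of 55681 passed with normexp, and 3841 and 3304 of 28367 with probes above background on all arrays. With those on 6 or more 3720 and 3123 of 32844 passed, and with the trend 3156 and 2405 of 55681. With 1 clone left out the counts were 748 to 4225 and 263 to 3397. No other comparison had a member called. The genotype fit with slide as a fixed block is the same comparison as 981E1/4/5 against 979B, since only slide 3 holds both genotypes. Of 1280 values of log2 differences under alternatives 33 had the opposite sign, and of 432 values of Pearson's r 16 did. The cause of these changes was not tested.

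For the genotype difference on the log2 scale, Dnmt1 became -0.10 both with slide as a fixed block and on slide 3 alone, which compare the same clones. Uhrf1 became 0.04 with quantile normalization. With 979B and 979F alone, the Dnmt3b probes gave 0.25, 0.07 and 0.11 and both Uhrf1 probes 0.03. In 981E1/4/5 against 967B, Dnmt1 became 0.04 with quantile normalization and 0.04 with the percentile over detected probes and 0.07 without 967B4 and 981E5, and Dnmt3a 0.02 and 0.06 with these and 0.06 with 981E1 and 981E4 averaged. In 979F against 981E1/4/5, Dnmt3a became 0.07 with normexp and 0.10 without 967B4 and 981E5.

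With 1 clone left out, the differences that crossed 0 had these ranges. In 979F against 979B they were -0.16 to 0.21 and -0.11 to 0.25 for Dnmt3b (A_55_P2008874 and A_55_P2130535) and -0.04 to 0.06 and -0.03 to 0.11 for Uhrf1. In 981E1/4/5 against 967B they were -0.16 to 0.07 for Dnmt1 and -0.15 to 0.18 for Dnmt3a. In 979B against 967B they were -0.16 to 0.54, -0.12 to 0.61 and -0.14 to 0.55 for the Dnmt3b probes, negative in each without 967B4, and -0.06 to 0.09 and -0.18 to 0.05 for Uhrf1. In 979F against 981E1/4/5 they were -0.23 to 0.10 for Dnmt3a and -0.03 to 0.25 for Dnmt3l.

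Among correlations, Dnmt1 with Dnmt3a became 0.04 with normexp, 0.24 without the 2 farthest clones and 0.08 without 967B4 and 981E5 (-0.29 to 0.10 with 1 clone left out). Dnmt3a with Dnmt3b became -0.37 with series means subtracted and -0.24 without the 2 farthest clones (-0.21 to 0.26). Dnmt3a with Uhrf1 had rho = 0.12, and r = 0.01 with normexp and 0.03 without 967B4 and 981E5 (-0.28 to 0.06). Dnmt3b with Otx2 became 0.39 with series means subtracted and 0.07 without 967B4 and 981E5. Leaving out 967B4 with 981E5, and each clone in turn for correlations, was chosen after seeing the data. No paired analysis was possible because the labels pair no single clones between groups, whereas slide and series were fitted as blocks.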
